A study of Mus musculus with 12 samples.

Results

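The genes described here are 27 sterol and fatty acid synthesis genes of the mouse, among 25199 genes measured on 12 one-colour Agilent arrays. A gene was a member if a gene probe on the array carried its symbol, either as deposited or as the current symbol of the probe's accession, so that Msmo1 was found under its older name Sc4mol. All 27 were measured, through 53 probes of 60 bases each, and where a gene had several, the probe brightest on average over the arrays is described. They comprise 5 regulators of the pathway, 7 enzymes of the mevalonate arm, 10 enzymes of the sterol arm, 1 sterol transport protein and 4 enzymes of fatty acid synthesis. Levels are log2 processed signals minus the 75th percentile of the array, so 0 is the signal at that percentile, and levels of different probes are not compared with each other.

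The study asked whether fibroblasts can be turned into induced pluripotent stem (iPS) cells with Bmi1, a polycomb protein, or with an activator of hedgehog signalling in its place, together with Oct4. The comparison at issue here is that of the iPS lines made with oxysterol against the other lines. There were 4 oxysterol lines. The OOiPS group had 2, made from oxysterol-treated neural stem cell (NSC)-like cells that were derived from embryonic fibroblasts and then transduced with Oct4. The OOiPS-TTF group also had 2, for which tail-tip fibroblasts of adult mice received oxysterol and Oct4. The 5 other lines came from embryonic fibroblasts: 2 BOiPS lines transduced with Bmi1 and Oct4, 1 SOiPS line made with Sonic hedgehog (Shh) and Oct4, and 2 POiPS lines made with purmorphamine, a Smoothened agonist, and Oct4. All 9 lines thus received Oct4. The other arrays held 129/Ola embryonic stem (ES) cells, mouse embryonic fibroblasts (MEF), and spheres of Bmi1-transduced NSC-like cells grown from embryonic fibroblasts, each on 1 array. The spheres are called iPS in one label field and NSC-like in another, and were treated here as NSC-like cells. Each sample was hybridised once, so a replicate is a line, and nothing in the labels says that 2 lines of a group came from separate cultures or animals. The p-values therefore measure the spread between these lines. The dose and duration of oxysterol, and whether it was still present when RNA was taken, are not stated in the labels.

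Cholesterol is built from acetyl-CoA through mevalonate, isoprenoid diphosphates, squalene and lanosterol, and fatty acids are built from the same acetyl-CoA. Both routes are switched on by the SREBP transcription factors, which Srebf1 and Srebf2 encode. SREBPs are made as membrane proteins, and Scap escorts them to the Golgi for cleavage when sterols are scarce. Insig1 and Insig2 hold Scap in the endoplasmic reticulum when sterols are plentiful. Oxysterols, the oxidised forms of cholesterol, bind the Insig proteins, activate the liver X receptors (LXR), and can also activate hedgehog signalling through Smoothened.

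The number of arrays limits the precision here. The share of gene spots well above background was 64.2% to 77.0% on the 4 oxysterol arrays and 58.4% to 80.0% on the others. Of the 27 members, 26 were well above background on all 12 arrays. The exception was Insig1, which was well above background on 9. Acat2, the thiolase at the start of the pathway, was saturated on all 12 arrays, so its fold changes are not given. The label checks behaved as follows. Pou5f1, which encodes Oct4, read 3.35 to 4.12 in the 9 lines and 3.62 in ES, against -6.66 in MEF and -5.56 in the spheres. Of 10 pluripotency markers 8 were measured, and all 8 were well above background in every line. The Bmi1 probe used read 0.37 in MEF and -0.23 in the spheres, whereas the other Bmi1 probe read -6.26 and -1.27. Only the latter was higher in the Bmi1-transduced spheres, by 4.98. The 8 neural stem cell markers summed to 2.53 times the array's 75th percentile in the spheres, with 6 well above background, against 4.50 in MEF and 3.60 to 13.1 in the 9 lines. Neither Bmi1 probe set the 2 BOiPS lines above all other lines. Both arrays of the OOiPS lines, the SOiPS array and POiPS line 2 lay on slide 2, while both tail-tip lines, POiPS line 1 and the spheres lay on slide 3. Slide 1 held ES, MEF and the BOiPS lines, and so holds no oxysterol line.

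Promoter sequence, taken from RefSeq for 300 bases around each start (250 before and 50 after, GRCm38.p6), was found for 21 of the 27 members. The 3 motifs below were searched on both strands: TCACNCCAC, the classical sterol regulatory element (SRE) with 1 free base; CCAAT, the site of the NF-Y factors that act with SREBPs; and GGGCGG, the GC box. Each motif was counted on its own, and matches of different motifs can share bases. The SRE motif occurred in 1 member, Hmgcs1, and in 1.50% of the 14635 genes tested on the arrays that had a promoter entry. CCAAT occurred in 19 of the 21 members, against 42.2% of those genes, and GGGCGG in 19 of the 21, against 56.3%. A match describes these letters only. The 180 bases before the start are shown for 5 members to which the comparisons below return, because they differ in these motifs. They are 5′ to 3′ on the gene's strand, with SRE and CCAAT matches of either strand in capitals.
Hmgcs1, chr13:119690171-119690350, plus strand: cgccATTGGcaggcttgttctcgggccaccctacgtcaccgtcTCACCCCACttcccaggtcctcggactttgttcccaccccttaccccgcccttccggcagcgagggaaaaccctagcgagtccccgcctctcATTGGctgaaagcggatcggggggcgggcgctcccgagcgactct
Mvd, chr8:122443423-122443602, minus strand: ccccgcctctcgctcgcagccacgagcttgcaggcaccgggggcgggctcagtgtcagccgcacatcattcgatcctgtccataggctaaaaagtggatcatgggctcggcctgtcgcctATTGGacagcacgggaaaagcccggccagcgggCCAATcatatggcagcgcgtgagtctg
Insig1, chr5:28071232-28071411, plus strand: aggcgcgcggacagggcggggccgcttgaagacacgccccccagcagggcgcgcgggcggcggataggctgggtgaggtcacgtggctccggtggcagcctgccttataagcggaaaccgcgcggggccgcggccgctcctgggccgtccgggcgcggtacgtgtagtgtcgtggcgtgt
Cyp51, chr5:4104698-4104877, minus strand: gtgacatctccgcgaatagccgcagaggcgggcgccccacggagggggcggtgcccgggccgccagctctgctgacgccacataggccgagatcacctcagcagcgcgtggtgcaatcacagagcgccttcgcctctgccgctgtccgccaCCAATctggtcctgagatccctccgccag
Hsd17b7, chr1:169969206-169969385, minus strand: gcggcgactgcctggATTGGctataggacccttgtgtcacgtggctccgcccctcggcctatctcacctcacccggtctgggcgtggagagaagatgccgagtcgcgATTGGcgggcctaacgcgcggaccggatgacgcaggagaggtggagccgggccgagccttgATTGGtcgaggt
Hmgcs1 held 1 SRE and 2 CCAAT matches in this window. Mvd held 2 CCAAT matches, Cyp51 held 1 and Hsd17b7 held 3, all with no SRE match. Insig1 held neither motif in the window and 2 GC boxes.

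In the oxysterol lines most of the 27 genes read somewhat higher than in the other iPS lines, but no member passed the test. The difference was above 0 for 23 of 27 members, with a median of 0.48 log2 units, whereas over all genes 11939 of 25199 differences were above 0 and the median was -0.03. The number above 0 was 23 or 24 under 6 ways of scaling or selecting probes, this one included, and the share of all genes above 0 was 42.9% to 49.1%. It was not counted with other filters on dim probes or with the mean of all probes. At a Benjamini-Hochberg adjusted p under 0.05 in limma, 0 members were called in either direction, and the share of all genes called was 0% higher and 0% lower. At an unadjusted p under 0.05, 4 members were higher (Mvd, Scap, Fdps and Scd2) and 0 were lower, against 2.23% of genes higher and 2.61% lower. In no member did the 4 oxysterol lines lie entirely above or below the 5 others, which 0.587% of genes did upward and 1.00% downward. By role, 3 of 5 regulators, 6 of 7 mevalonate enzymes, 10 of 10 sterol enzymes, Stard4 and 3 of 4 fatty acid enzymes had differences above 0. The medians of these groups were 0.83, 0.32, 0.31, 0.54 and 0.30.

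**Figure D1:**
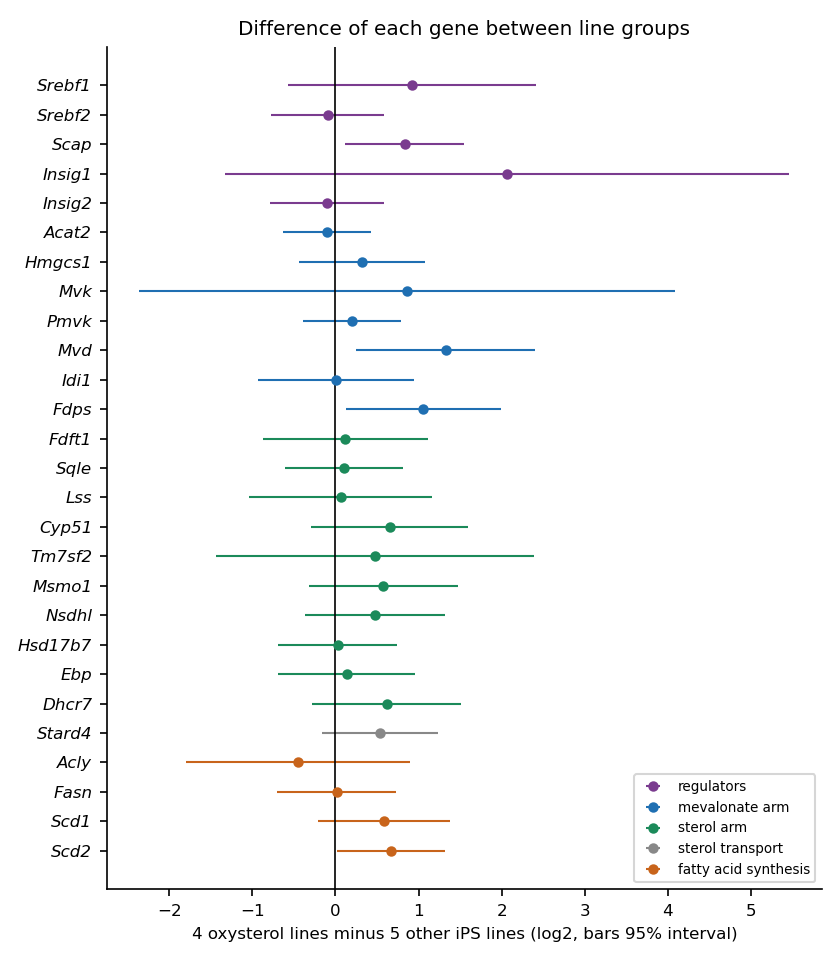
Difference of each member between the 4 oxysterol lines and the 5 other iPS lines on the log2 scale (points), with 95% intervals (bars), coloured by role. Of the 27 points 23 lie above 0, and 4 intervals exclude 0 before adjustment over all genes. Acat2 was saturated, so its point is not a measured difference.

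The lead rested in large part on OOiPS line 1. That line had the highest value of the 9 lines for 14 of the 27 members, against 18.7% of all genes, and the lowest for 0, against 17.1%. Its median difference from the 5 other lines was 1.01, with 23 of 27 members above 0. OOiPS line 2 had a median of 0.42, with 18 of 27 above 0, and the 2 tail-tip lines together had 0.13, also with 18 of 27. Without OOiPS line 1 the median of the comparison was 0.24 and 19 of 27 differences were above 0. Without BOiPS line 1, which had the lowest value of the 9 lines for 6 members, the median was 0.27. Within slide 2, where the OOiPS lines can be set against SOiPS and POiPS line 2, the median was 0.56. Within slide 3, where the tail-tip lines can be set against POiPS line 1, it was 0.22. Taking all 8 samples made without oxysterol as the rest, ES, MEF and the spheres included, gave 0.13.

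**Figure D2:**
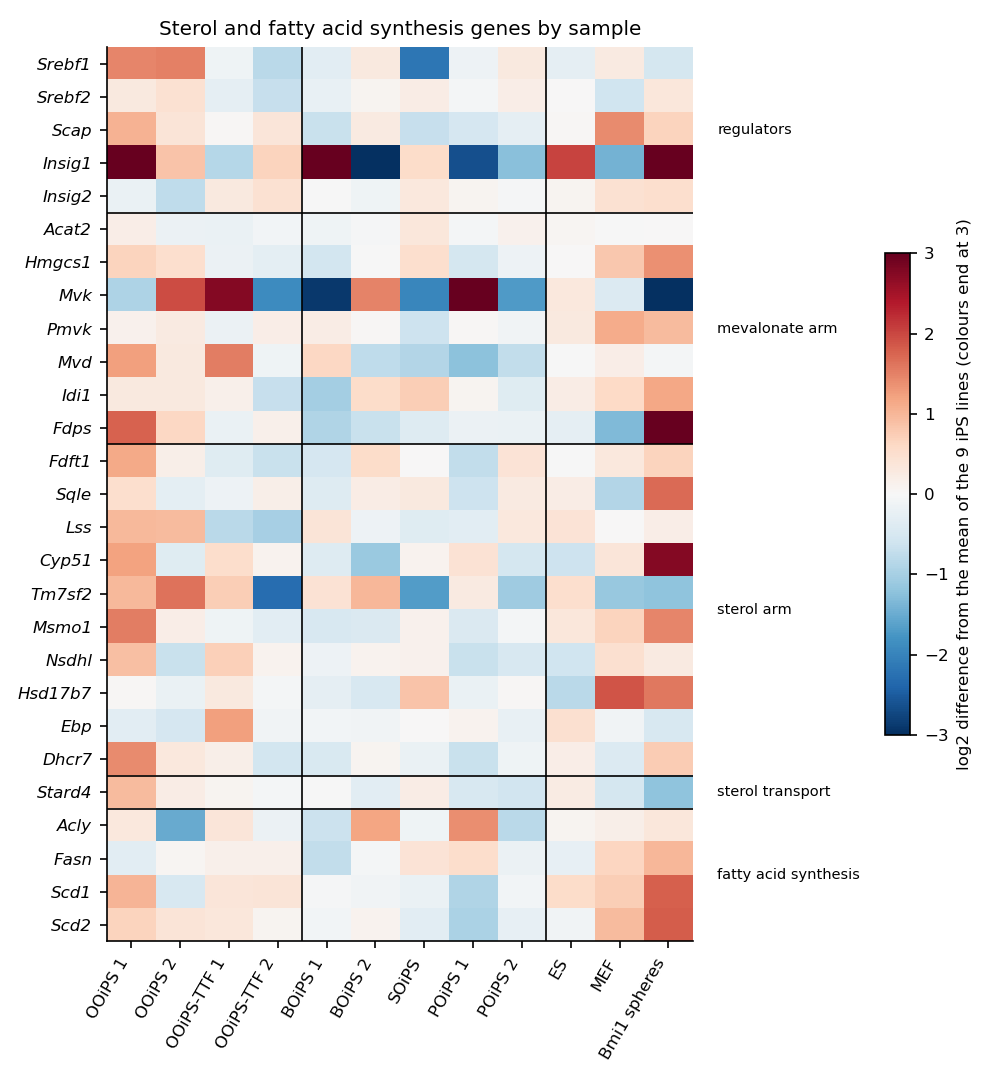
Each of the 27 members (rows, by role) in each of the 12 samples (columns), as the log2 difference from the mean of the 9 iPS lines; red is higher and blue lower, and colours end at 3. OOiPS line 1 lies above the mean of the lines for 23 members and the spheres for 21.

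Other features of OOiPS line 1 were also recorded. Its array had the lowest 75th percentile of the 12, at an intensity of 1340 against 1438 to 2156 on the others. Its 8 pluripotency markers summed to 79.4 times that percentile, the lowest of the 9 lines, against 91.1 to 136 in the others. Their median difference from the mean of the 9 lines was -0.16, with 3 of 8 above it. By that median POiPS line 2 and tail-tip line 2 were lower, at -0.37 and -0.26. Nanog read 3.94 in OOiPS line 1 against 4.86 to 5.42, on a probe saturated in 6 of the 9 lines but not in this line. Utf1 was highest of the 9 lines there, at -0.75. The fibroblast markers of OOiPS line 1 had a median 1.10 above the mean of the 9 lines, with 8 of 10 markers above it. The summed level of the 10 fibroblast markers, in units of the array's 75th percentile, was 12.5 in that line, 3.80 to 38.6 over the oxysterol lines and 3.46 to 26.95 over the others, against 120 in MEF. POiPS line 2 and tail-tip line 2 had fibroblast medians of 1.07 and 1.87, and the 27 members there had medians of -0.18 and -0.07. Markers of visceral endoderm or liver, of which 6 of 7 were measured, were 0.88 above the mean of the lines in OOiPS line 1, with 5 of the 6 above it. Their summed level was 1.12 there, 0.363 to 0.622 in the other oxysterol lines and 0.399 to 0.639 in the 5 other lines, and 5 of the 6 were well above background. The part of these cells or of array depth in the result was not tested, and in bulk RNA more cells of a type and more RNA per cell cannot be told apart.

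**Figure D3:**
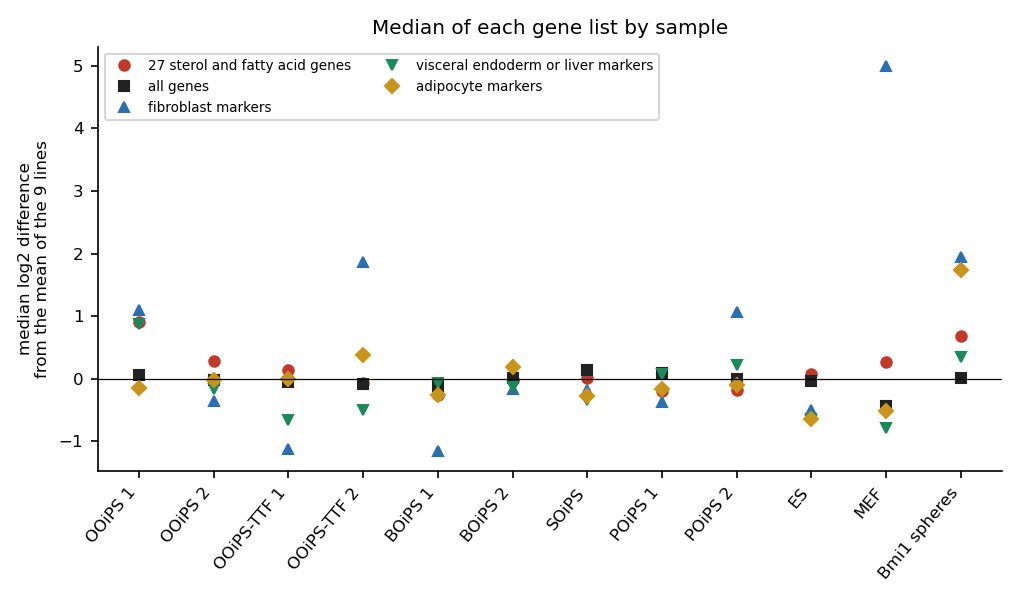
Median log2 difference from the mean of the 9 iPS lines in each of the 12 samples, for the 27 members, for all genes and for 3 lists of cell type markers. The members reach 0.90 in OOiPS line 1 and 0.68 in the spheres, and lie between -0.27 and 0.28 in the other samples.

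Among the regulators, Insig1 had the widest spread, and its difference depended on how signals near background were treated. It read -0.56 and -3.60 in the OOiPS lines and -5.32 and -3.79 in the tail-tip lines. The 5 other lines read -1.29 and -8.89 in BOiPS, -3.91 in SOiPS, and -7.10 and -5.72 in POiPS. ES read -2.44, MEF -5.87 and the spheres 0.06. OOiPS line 1 and BOiPS line 1 were the only lines above ES, and the groups overlapped over most of their range. The difference was 2.07 log2 units (SE 1.51, 95% interval -1.33 to 5.46, limma adjusted p = 0.953), with an exact permutation p over the 9 lines of 0.246. The probe was not well above background in BOiPS line 2 or either POiPS line, so their values lie near the floor of the array. The difference was 0.83 with normexp background correction and 0.52 with signals raised to the highest floor of the arrays. A second Insig1 probe was well above background on 3 arrays (OOiPS line 1, tail-tip line 1 and the spheres) and gave a difference of 1.67. Insig2, the paralogue, read 0.67 to 1.89 in the 9 lines and differed by -0.10 (95% interval -0.79 to 0.59).

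Srebf1, whose product favours fatty acid genes, was high in both OOiPS lines only. It read 1.36 and 1.42 there, -0.22 and -0.91 in the tail-tip lines, -0.42 and 0.20 in BOiPS, -2.27 in SOiPS, and -0.26 and 0.19 in POiPS. ES read -0.37, MEF 0.17 and the spheres -0.62. The 2 OOiPS lines lay above all 10 other samples and the tail-tip lines lay among the other lines, so the difference of 0.92 for the 4 lines together (SE 0.66, limma adjusted p = 0.953) averaged unlike values. Within slide 2 it was 2.43 and within slide 3 it was -0.30. Srebf2, whose product favours cholesterol genes, differed by -0.09, from a probe that was saturated on 1 array. Of its other probes, those well above background on all 12 arrays gave 0.44 and 0.45, and one well above background on 7 gave 1.38.

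Scap, the SREBP escort protein, was one of the 4 members with an unadjusted p under 0.05. It read 2.78 and 2.12 in the OOiPS lines and 1.75 and 2.09 in the tail-tip lines. The other lines read 1.06 and 1.99 in BOiPS, 1.02 in SOiPS, and 1.22 and 1.46 in POiPS, while ES read 1.76, MEF 3.14 and the spheres 2.39. Among the other lines only BOiPS line 2 reached the level of the oxysterol lines. The difference was 0.83 (SE 0.32, 95% interval 0.12 to 1.55, limma unadjusted p = 0.0273 and adjusted p = 0.953), and the exact permutation p was 0.0238. It was 1.20 within slide 2 and 0.70 within slide 3.

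In the mevalonate arm, Mvd and Fdps differed most. Mvd, which decarboxylates mevalonate diphosphate, read 2.79 and 1.86 in OOiPS and 3.09 and 1.43 in OOiPS-TTF. It read 2.19 and 0.81 in BOiPS, 0.68 in SOiPS, and 0.34 and 0.82 in POiPS, with ES at 1.55, MEF at 1.76 and the spheres at 1.49. BOiPS line 1 was the one other line inside the range of the oxysterol lines. The difference was 1.33 (SE 0.48, 95% interval 0.25 to 2.41, limma unadjusted p = 0.0209 and adjusted p = 0.953; exact permutation p = 0.0476), with 1.58 within slide 2 and 1.93 within slide 3.

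Fdps makes farnesyl diphosphate, the last intermediate shared by sterols and other isoprenoids. Its brighter probe, designed to a cDNA clone, read 2.37 and 1.21 in OOiPS and 0.39 and 0.75 in OOiPS-TTF. The other lines read -0.31 and -0.08 in BOiPS, 0.20 in SOiPS, and 0.43 and 0.39 in POiPS, with ES at 0.33, MEF at -0.74 and the spheres at 3.93. Both OOiPS lines were above every other line, and tail-tip line 1 was level with the POiPS lines. The difference was 1.06 (SE 0.41, 95% interval 0.13 to 1.99, limma unadjusted p = 0.0301 and adjusted p = 0.953; exact permutation p = 0.0159). It was 1.50 within slide 2 and 0.14 within slide 3. The probe to the RefSeq mRNA disagreed. It read -2.26 and -2.40 in OOiPS, -2.11 and -3.53 in OOiPS-TTF and -3.57 to -0.70 in the 5 other lines, a difference of -0.35. The direction for Fdps between these groups therefore depended on the probe. Both Fdps probes were highest of the 12 samples in the spheres.

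Mvk, the kinase of mevalonate, varied more between lines of a group than between groups. Its brighter probe read -0.90 and 1.98 in OOiPS, 2.77 and -1.86 in OOiPS-TTF, -2.89 and 1.52 in BOiPS, -1.95 in SOiPS, and 3.17 and -1.69 in POiPS. ES read 0.33, MEF -0.39 and the spheres -3.12. The range over the 9 lines was 6.06 log2 units, and lines of the same group lay on opposite sides of ES. The difference was 0.86 (SE 1.43, 95% interval -2.36 to 4.09). The other Mvk probe, to the same RefSeq mRNA, read -5.45 to -3.61 in the 9 lines and differed by -0.27. The sequences of these probes, in 5′ to 3′ order with their mm7 positions from the array design, are shown with those of the Insig1 probe used and the RefSeq probe of Fdps, because the direction or the spread of these 3 genes rests on them.
Fdps RefSeq probe, chr3:89208691-89208831, minus strand: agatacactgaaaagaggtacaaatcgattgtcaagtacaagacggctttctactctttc
Insig1 probe used, chr5:27107061-27107533, plus strand: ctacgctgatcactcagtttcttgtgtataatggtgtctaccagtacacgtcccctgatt
Mvk probe used, chr5:113674161-113674220, plus strand: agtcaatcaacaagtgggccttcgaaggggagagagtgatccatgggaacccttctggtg
Mvk other probe, chr5:113677760-113680707, plus strand: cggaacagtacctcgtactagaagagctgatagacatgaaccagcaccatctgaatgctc
Of these, the Mvk probe used spans 60 bases of the mm7 assembly and the other Mvk probe spans 2948, so the latter aligned in more than 1 block, as did the Insig1 probe over 473 bases and the Fdps probe over 141.

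**Figure D4:**
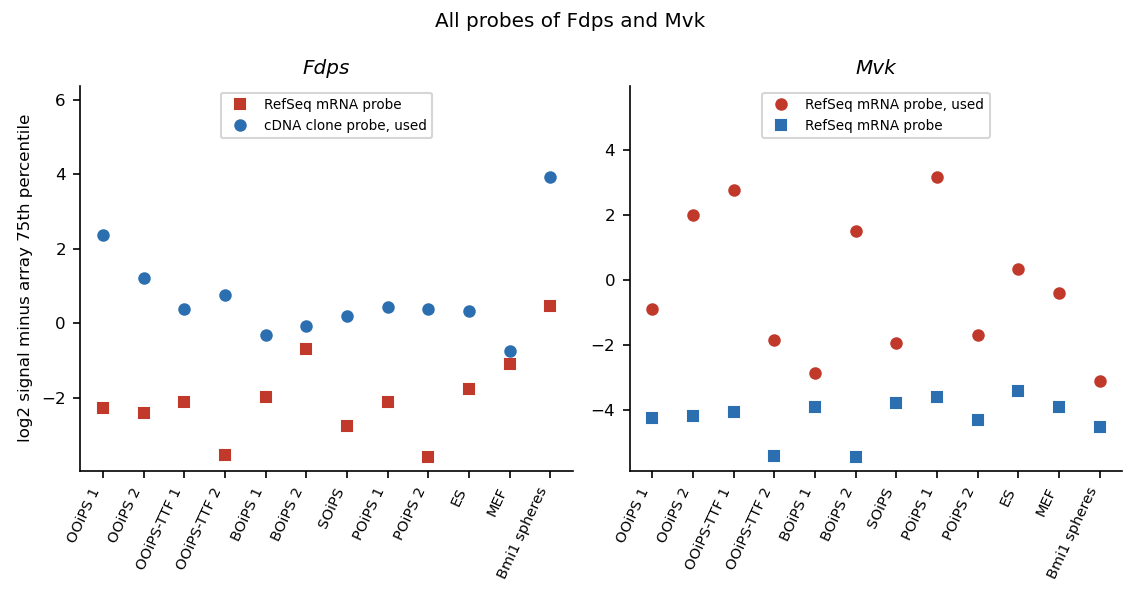
Log2 signal minus the array's 75th percentile for both probes of Fdps (left) and of Mvk (right) in the 12 samples; circles mark the probe used and squares the other. The Mvk probe used ranges from -2.89 to 3.17 over the 9 lines and the other Mvk probe from -5.45 to -3.61.

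The remaining mevalonate enzymes differed little. Hmgcs1, which makes HMG-CoA and carried the only SRE match, read 4.44 and 4.27 in OOiPS, 3.60 and 3.48 in OOiPS-TTF, and 3.22 to 4.28 in the 5 other lines. The difference was 0.32 (95% interval -0.43 to 1.08). Pmvk and Idi1, the next kinase and the isomerase, differed by 0.19 and 0.01. In Idi1 tail-tip line 2 was the lowest oxysterol line, at -0.62 against 0.22 to 0.37 in the other 3.

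Among the sterol enzymes, Cyp51 and Dhcr7 had the largest differences, and OOiPS line 1 was the highest line in both. Cyp51, the lanosterol demethylase, read -1.04 and -2.60 in OOiPS and -1.71 and -2.12 in OOiPS-TTF. It read -2.61 and -3.33 in BOiPS, -2.13 in SOiPS, and -1.79 and -2.76 in POiPS, with ES at -2.85, MEF at -1.86 and the spheres at 0.52. OOiPS line 2 fell among the other lines, and the difference was 0.66 (SE 0.42, 95% interval -0.29 to 1.60, limma adjusted p = 0.953), or -0.13 within slide 3. Dhcr7, the reductase of the last step to cholesterol, read 4.82 and 3.71 in OOiPS and 3.58 and 2.85 in OOiPS-TTF. It read 2.94 and 3.49 in BOiPS, 3.19 in SOiPS, and 2.73 and 3.28 in POiPS, with ES at 3.61, MEF at 2.98 and the spheres at 4.16. The difference was 0.61 (SE 0.40, 95% interval -0.28 to 1.51), and 0.25 without OOiPS line 1.

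The other 8 sterol enzymes had differences between 0.03 and 0.58. Msmo1, a methylsterol oxidase, differed by 0.58 and read 4.52 in OOiPS line 1 against 2.51 to 3.19 in the other 8 lines. Nsdhl, which removes the carboxyl groups this leaves, and Tm7sf2, a sterol reductase, each differed by 0.48. Tm7sf2 had the widest range in this arm, 3.89 log2 units, from -4.17 in tail-tip line 2 to -0.28 in OOiPS line 2. Ebp, Fdft1, Sqle, Lss and Hsd17b7 differed by 0.13, 0.12, 0.11, 0.06 and 0.03. Fdft1 makes squalene, Sqle and Lss turn it into lanosterol, and Ebp and Hsd17b7 act on later sterols. For Lss another probe gave 1.16, with 3.45 in tail-tip line 2 and -2.60 to 0.93 in the other 8 lines. Stard4, which carries sterols between membranes, differed by 0.54 (95% interval -0.16 to 1.23).

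In fatty acid synthesis the differences of both desaturases were above 0, and those of the earlier enzymes lay near or below it. Scd2 read 3.80 and 3.53 in OOiPS and 3.47 and 3.21 in OOiPS-TTF. It read 3.05 and 3.23 in BOiPS, 2.82 in SOiPS, and 2.17 and 2.90 in POiPS, with ES at 3.02, MEF at 4.07 and the spheres at 4.95. BOiPS line 2 was the one other line inside the range of the oxysterol lines, just above tail-tip line 2. The difference was 0.67 (SE 0.29, 95% interval 0.02 to 1.32, limma unadjusted p = 0.0445 and adjusted p = 0.953; exact permutation p = 0.0238), with 0.81 within slide 2 and 1.17 within slide 3.

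Scd1, its paralogue, read 3.40 and 1.91 in OOiPS and 2.76 and 2.79 in OOiPS-TTF. It read 2.36 and 2.29 in BOiPS, 2.20 in SOiPS, and 1.49 and 2.32 in POiPS, with ES at 2.95, MEF at 3.12 and the spheres at 4.18. OOiPS line 2 was below 4 of the 5 other lines, and the difference was 0.58 (SE 0.35, 95% interval -0.21 to 1.37). Among the dimmer probes, one of Fasn gave 1.66 (well above background on 9 arrays) and a pair for Nsdhl gave 2.72 and 2.11 (on 6 and 8 arrays). Acly, which splits citrate to acetyl-CoA, differed by -0.45 (95% interval -1.80 to 0.90). Fasn, the fatty acid synthase itself, differed by 0.01 (95% interval -0.70 to 0.73). Exact permutation tests were run for all 27 members. With 4 lines against 5 there are 126 assignments and the smallest possible p is 0.00794, and the 4 p-values printed for Scap, Mvd, Fdps and Scd2 were the only ones under 0.05.

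**Figure D5:**
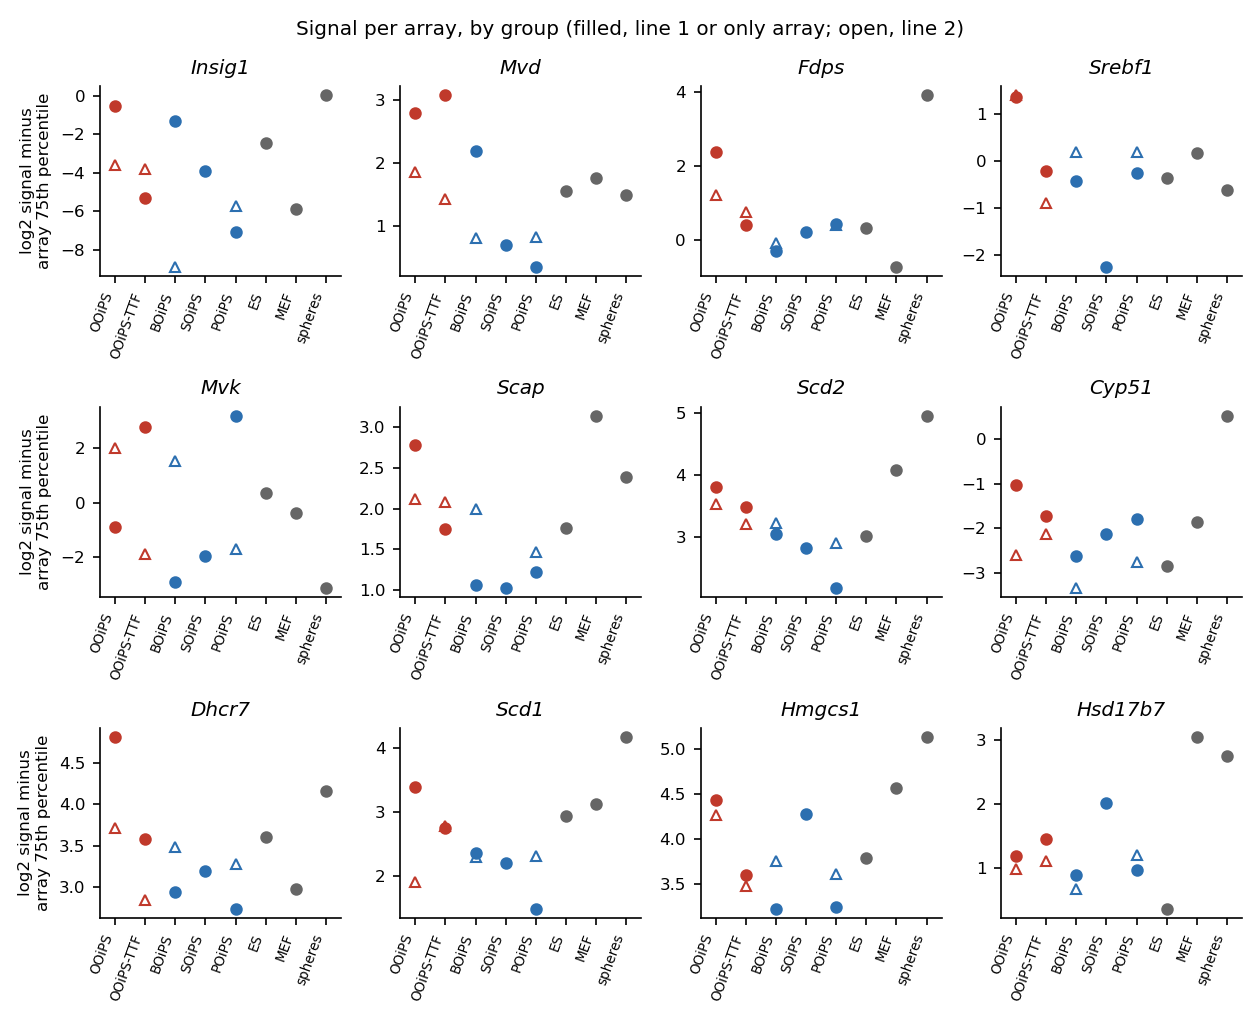
Log2 signal minus the array's 75th percentile on each array, by group, for the 10 members with the largest difference between line groups and for Hmgcs1 and Hsd17b7. Red marks oxysterol lines, blue other iPS lines and grey ES, MEF and spheres; filled symbols are line 1 or the only array and open symbols line 2. Hsd17b7 is at 3.06 in MEF and 2.76 in the spheres, above all 9 lines.

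Of 25 further pathway genes 0 were called, 16 differences were above 0 and the median was 0.18. At an unadjusted p under 0.05 there was 1, Me1, a source of reducing power for fatty acid synthesis, at 0.87. Of 9 LXR genes 0 were called at either threshold, with 6 differences above 0 and a median of 0.27. Over all genes 0% passed at the adjusted threshold, and 2.23% were higher and 2.61% lower at the unadjusted one, so counts of 0 or 1 in lists this short lie near the background.

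When the 2 OOiPS lines alone were compared with the 5 other lines from embryonic fibroblasts, the median difference was 0.71, with 21 of 27 members above 0 and an all-gene median of 0.00. Again 0 members and 0% of genes passed in either direction in limma. At an unadjusted p under 0.05, 7 members were higher (Srebf1, Scap, Fdps, Lss, Msmo1, Dhcr7 and Scd2) and 0 were lower, against 3.54% of genes higher and 3.54% lower. On the probes used, both OOiPS lines lay above all 5 other lines for those 7 and for Srebf2. They lay below all 5 for Insig2 and Ebp. That is 8 of 27 upward and 2 downward, where 6.35% and 5.72% of genes separated in this way. A second Insig2 probe, also well above background on all 12 arrays, turned the other way. It read 1.69 and 1.22 in OOiPS against 0.31 to 0.96 in the 5 other lines. A dimmer Dhcr7 probe did not separate the groups, at -3.71 and -5.33 in OOiPS against 1.28 in POiPS line 2. The Srebf2 probe used was saturated in OOiPS line 2. Among the other Srebf2 probes well above background on all 12 arrays, the RefSeq probe separated the groups, at 2.11 and 3.11 in OOiPS. The clone probe did not, with 2.24 in OOiPS line 2 and 2.33 in SOiPS. Lss, which closes the sterol ring, read -0.01 and -0.03 in OOiPS against -1.36 to -0.60 in the 5 other lines. The difference was 1.00 (SE 0.34, limma unadjusted p = 0.0175 and adjusted p = 0.675), on a probe to a cDNA clone. Its RefSeq probes did not separate the groups. One read -0.81 and -2.93 in OOiPS against -2.58 to -1.03 in the 5 other lines. On another, POiPS line 1 read 0.93, above the OOiPS lines at -0.63 and -0.88. Fdps had the smallest unadjusted p of the members, with a difference of 1.67 (SE 0.41, limma unadjusted p = 0.00327 and adjusted p = 0.622), which was -0.11 on its RefSeq probe. Without OOiPS line 1 the median over the members was 0.42. Within slide 2 it was 0.56.

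In the tail-tip oxysterol lines most members read lower than in the embryonic ones. The median difference was -0.32 over the members and -0.08 over all genes, and 20 of 27 members were below 0. In limma 0 members and 0% of genes passed in either direction, and at an unadjusted p under 0.05 there were 4 members lower and 1 higher, against 3.38% and 3.21% of genes. Both tail-tip lines lay below both OOiPS lines for 14 of 27 members and above for 3, against 21.1% and 14.5% of genes. Lss had the smallest p of the members, at -1.80 and -1.98 in the tail-tip lines on its clone probe. The difference was -1.87 (SE 0.40, limma unadjusted p = 0.00153 and adjusted p = 0.550). Its RefSeq probes did not separate the groups. One read -1.55 and -1.59 in the tail-tip lines, between the OOiPS lines at -0.81 and -2.93. Another read -2.60 and 3.45 in the tail-tip lines, on either side of the OOiPS lines at -0.63 and -0.88. Srebf1 differed by -1.95 and Tm7sf2 by -2.06, while Insig2 was higher by 0.86 and Ebp by 0.97. On its second probe Insig2 was lower, at 0.33 and 0.89 in the tail-tip lines against 1.69 and 1.22 in OOiPS. The 6 visceral endoderm or liver markers measured were all below 0 in the same comparison, with a median of -1.14 and 3 of them not overlapping. Of these, Afp was well above background on 2 of the 12 arrays and Alb on 3. From the mean of the 9 lines, the marker median was 0.88 in OOiPS line 1 and -0.16 in OOiPS line 2. It was -0.66 and -0.50 in the tail-tip lines. The part of these markers in the result was not tested. No slide held both groups. With slide as a block, linked through the POiPS lines, the median of the members was -0.27. The median was -0.20 without OOiPS line 1, -0.63 without OOiPS line 2 and -0.65 without tail-tip line 1.

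Against MEF, the cell type that all but the tail-tip lines were made from, 1 member passed. Hsd17b7, a keto-reductase of late sterol synthesis, fell in the iPS lines. It read 3.06 in MEF and 2.76 in the spheres, against 1.20 and 0.98 in OOiPS, 1.45 and 1.12 in OOiPS-TTF, 0.90 and 0.68 in BOiPS, 2.03 in SOiPS, 0.97 and 1.21 in POiPS, and 0.36 in ES. All 9 lines lay below MEF, SOiPS nearest to it. The difference was -1.89 (SE 0.48, limma adjusted p = 0.0303), or 3.70-fold, and its other probe gave -1.82. MEF is 1 array, assumed to vary as the lines do. The call held in 21 of 24 alternative settings, and the adjusted p was 0.0582 without the tail-tip lines and 0.0863 with the mean of both probes. Within the slide of MEF, with the 2 BOiPS lines only, the difference was -2.27 and the adjusted p 0.175. The promoter of Hsd17b7 held 3 CCAAT matches in the window shown above.

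That 1 of 27 members passed downward and 0 upward compares with 2.78% of all genes downward and 8.23% upward. The median of the members was -0.27, with 17 of 27 below 0, whereas the median of all genes was 0.44. Quantile normalization brought the latter to 0.12 and left the former at -0.32. Without the SOiPS line the median of the members was -0.15 and without OOiPS line 1 it was -0.44. Next to Hsd17b7 came Scap at -1.42 (limma adjusted p = 0.171) and Pmvk at -1.12 (adjusted p = 0.103). Pmvk passed with an intensity trend in the variances (adjusted p = 0.0413), but its other probe, which abuts the first in the assembly, gave 0.82. Insig1 and Fdps read higher in the lines, by 1.41 and 1.34, with limma adjusted p-values of 0.734 and 0.304, but the RefSeq probe of Fdps gave -1.29. Lss, at -0.0049 on the probe used, gave 2.57 on another probe that was well above background on all 12 arrays. Dimmer probes of Acly, Fasn, Idi1, Insig2, Srebf2 and Stard4, not well above background on every array, also pointed the other way by over 2-fold. On the probes used, all 4 fatty acid enzymes were below 0, from -0.94 for Scd2 to -0.17 for Acly, and none passed.

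Of the 25 other pathway genes, 5 rose and 1 fell against MEF, where 8.23% of all genes rose and 2.78% fell. Mlxipl, which encodes the carbohydrate-responsive factor ChREBP, rose by 6.14 (limma adjusted p = 6.75e-05), from -3.09 in MEF to 2.59 to 3.84 in the lines. Elovl6, which lengthens fatty acids, rose by 2.86 (adjusted p = 0.00771), and Lbr, a nuclear envelope protein with sterol reductase activity, rose by 2.26 (adjusted p = 0.00302). Acacb, an acetyl-CoA carboxylase, rose by 4.46 (adjusted p = 0.000124) on a probe to a cDNA clone, while its RefSeq probe gave -0.74. Pnpla3, a lipid droplet protein, rose by 2.85 (adjusted p = 0.0471), a call that did not hold in 15 of 24 alternative settings. Ggps1, which makes geranylgeranyl diphosphate, fell by 1.93 (adjusted p = 0.0224), and its RefSeq probe gave 0.06. The Ggps1 call was also lost with the mean of all probes (-1.21, limma adjusted p = 0.092) and in the 8-group model (adjusted p = 0.078). Within the slide of MEF, where the 2 BOiPS lines were the only lines, limma called 0 of 25199 genes. The differences there were 6.32 for Mlxipl, 4.44 for Acacb, 2.73 for Elovl6, 2.49 for Lbr, 2.27 for Pnpla3, -2.04 for Ggps1 and -5.12 for Apoe. Among the 9 LXR genes 1 passed, Apoe, a lipid carrier, which fell by 4.93 (adjusted p = 0.000668). In ES, Mlxipl read 2.45, Acacb 2.25 and Apoe -1.86.

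Against ES, 0 of 27 members passed in limma in either direction, as did 0.00794% of genes upward and 0.0198% downward. At an unadjusted p under 0.05 the count was 0 of 27, against 2.06% of genes higher and 2.44% lower. The median difference was -0.08, with 9 of 27 above 0. The largest were Insig1 at -2.02 (95% interval -7.50 to 3.46) and Hsd17b7 at 0.81 (95% interval -0.25 to 1.87), the latter higher in all 9 lines than in ES. These intervals are wide, since ES is 1 array. Other probes of Dhcr7, Hmgcs1, Idi1, Insig1, Lss and Stard4 had the opposite sign and were themselves over 2-fold from ES. Except for that of Lss, these probes were not well above background in ES, so their differences start from values near the floor.

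ES and the spheres were each set against MEF with 1 array a side. With the spread of the 9 lines standing in for theirs, limma called 0 members higher and 1 lower in ES, and 1 higher and 0 lower in the spheres. Without a test, a gene was counted where its levels were at least 2-fold apart and the higher one exceeded background clearly. In ES 4 members were higher (Insig1, Tm7sf2, Sqle and Fdps) and 4 lower (Hsd17b7, Scap, Nsdhl and Scd2), against 26.6% of genes higher and 20.7% lower. The difference for Hsd17b7 was -2.70. Fdps was higher in ES only on the clone probe, since its RefSeq probe read -1.77 in ES and -1.09 in MEF. In the spheres 6 members were higher and 1 lower, against 32.9% and 17.6% of genes. The spheres exceeded MEF by 5.93 for Insig1, 4.67 for Fdps, 2.59 for Sqle, 2.38 for Cyp51, 1.18 for Dhcr7 and 1.06 for Scd1. On its RefSeq probe Fdps also was highest there, at 0.46 against -1.09 in MEF. Mvk was lower, by 2.73 on the probe used.

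Over the 12 samples the spheres were highest for 10 of 27 members, against 16.0% of all genes. These were Insig1, Insig2, Hmgcs1, Idi1, Fdps, Sqle, Cyp51, Fasn, Scd1 and Scd2, and so came from every role but transport. On its second probe, however, Insig2 read 0.18 in the spheres, below MEF at 1.84. The 7 adipocyte markers were all well above background in the spheres and summed to 18.3 times the array's 75th percentile. The sum was 2.97 to 9.24 in the 9 lines, 5.22 in ES and 6.90 in MEF. Most of the sum in the spheres came from Lpl at 3.70 and Fabp4 at 2.24. Adipoq, Plin1, Pparg, Lep and Cidec read -5.39 to -1.87 there, and each was exceeded in another sample. Fibroblast markers summed to 41.4, and visceral endoderm or liver markers to 3.08, with 6 of 6 well above background. Of the latter, Afp read 1.29 and the others -6.68 to -1.81. The part of any such cells in the result was not tested.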

How the data were processed

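RNA from 12 samples was measured, with 1 Agilent array of 1 colour for each. Per the file headers, Feature Extraction 9.5.3.1 made the deposited intensity values (processed signals), already background-subtracted. Here log2 of these was taken minus each array's 75th percentile. Control spots and outlier spots were left out, and probes not well above background on at least 1 array were dropped. A gene was read from its probe with the highest mean signal. Groups were compared with limma 3.58.1 (R 4.3.3; lmFit, eBayes), with Benjamini-Hochberg adjustment over 25199 genes at 0.05, and single members also with exact permutation tests. The methods were tested on simulated data. Alternatives covered background, normalization, filters, probes, slides and left-out lines. The members and lists were chosen with earlier results of these data known. Named genes were all members, those of the other pathway genes that passed and up to 2 LXR genes that passed; results for 2 further genes are not reported here. Values in every sample were given for the 10 members with the largest oxysterol difference and any that passed.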

Additional observations from a re-analysis of the deposited data

Results flagged for a closer look

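In 4 cases 1 line lay far from the rest of its group by Dixon's criterion, which chance meets in about 1 in 20 groups. The criterion was applied to all 27 members, in the 4 oxysterol lines and in the 5 other iPS lines. Some such cases therefore arise by chance. Srebf1 read -2.27 in SOiPS, below the 4 other lines without oxysterol, with a gap of 0.749 of the group's range. Mvd read 2.19 in BOiPS line 1, above the others of its group, with a gap of 0.742. Scd1 read 1.49 in POiPS line 1, below the others, with a gap of 0.817. Idi1 read -0.62 in tail-tip line 2, below the other 3 oxysterol lines, with a gap of 0.851.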

How the results depend on the processing

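For the oxysterol lines against the other lines, 0 members passed in any alternative run. The median of the members stayed above 0 in all of these runs. Adjusted p-values by run were kept only for Insig1, Mvd, Fdps, Srebf1, Mvk, Scap, Scd2, Cyp51, Dhcr7, Scd1 and Hsd17b7. Among these members the lowest in limma was 0.464. Over all comparisons, 1389 values of single genes were recomputed. Of these 1301 kept their direction and side of the threshold, 62 changed sign with 0 of these past the threshold, and 26 lost the threshold. The limits are few arrays, 1 per line and 1 each for MEF, ES and spheres, and slides that hold different groups. Whether line numbers pair samples across groups is not known. Correlations of same-numbered deviations ran from -0.163 to 0.243, and without a reference for paired lines they cannot decide it. The replicate block left the oxysterol median at 0.48 and no paired fit called a gene there. The cause of each change below was not tested.

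The count of all genes called by limma against ES, 7 in the report's fit, was 51 with normexp, 84 with quantile normalization, 2 with probes above background on at least 6 arrays, 1 with the mean of all probes, 2 with an intensity trend, 2 with the replicate block and 307 with signals raised to the highest floor. It was 0 in the 8-group model, with a fixed block for slide, within the slide of ES and without the tail-tip lines. For the OOiPS lines against the other embryonic lines the count was 2 with normexp and 29 with the raised floor, and for tail-tip against OOiPS lines it was 1 with quantile normalization and 49 with the raised floor. Against MEF it was 1802 with slide as a fixed block and 0 within the slide. Members called against MEF numbered 0 with the mean of all probes, within the slide and without the tail-tip lines, and 2 (Hsd17b7 and Pmvk) with an intensity trend or the raised floor. For ES against MEF, a 3-fold threshold left 2 members higher and 1 lower, the mean of probes gave 9 lower, and limma with the spread of the lines gave 0 higher and 1 lower. For the spheres, normexp and the mean of probes each gave 2 lower, and limma gave 1 higher and 0 lower.

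Leaving out 1 line at a time moved the count of all genes called between 0 and 1 for oxysterol against other lines, 0 and 93 for OOiPS lines (93 without OOiPS line 2), 0 and 9 for tail-tip lines (9 without OOiPS line 2) and 0 and 8 against ES. In the same way, for oxysterol lines Hsd17b7 ran from -0.091 to 0.24. For OOiPS lines Mvk ran from -0.53 to 2.35, Cyp51 from -0.074 to 1.49, Scd1 from -0.22 to 1.27 and Hsd17b7 from -0.19 to 0.15. For tail-tip lines Mvd ran from -0.89 to 0.77, Mvk from -2.41 to 2.23, Cyp51 from -0.88 to 0.68 and Scd1 from -0.63 to 0.86. Against MEF Srebf1 ran from -0.46 to 0.0019. Against ES Mvd ran from -0.18 to 0.16, Mvk from -0.71 to 0.049 and Scap from -0.17 to 0.052.

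None of the remaining values passed after its sign changed. Of them only Acacb and Ggps1 against MEF had passed in the report's fit. For oxysterol against other lines, Hsd17b7 was -0.19 with slide as a fixed block, -0.53 within slide 2 and -0.31 against all 8 other samples. Fdps was -0.35 on its RefSeq probe. Within slide 3 Srebf1 was -0.30, Mvk -2.72 and Cyp51 -0.13, and without the OOiPS lines Srebf1 was -0.052. For OOiPS lines Hsd17b7 was 0.19 with the mean of probes and Fdps -0.11 on its RefSeq probe. For tail-tip against OOiPS lines Mvd was 0.023 with quantile normalization, 0.027 with the percentile over probes detected on all arrays and 0.35 with slide as a fixed block, which also gave 0.37 for Scd2. Mvk was 0.002 with that percentile and 0.12 with slide as a random block. With the mean of probes Cyp51 was 0.41, Dhcr7 0.80 and Hsd17b7 -0.031. Against MEF Mvk was -0.29 with slide as a fixed block and within the slide. On RefSeq probes Fdps was -1.29, and the calls of Acacb and Ggps1 were lost at -0.74 and 0.060. Against ES Mvd was -0.14 with normexp, -0.049 with slide as a block and within the slide, and -0.19 without the tail-tip lines. Scap was 8e-04 with quantile normalization and 0.0066 with the detected-probe percentile. Fdps was -0.17 with the mean of probes, -0.52 with slide as a block and within the slide, and -0.60 on its RefSeq probe. Dhcr7 was 0.96 with the mean of probes, and Cyp51 was -0.13 with slide as a block and within the slide.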
